A study of Pimephales promelas with 27 samples.

Results

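Newly hatched fathead minnows that had developed in fresh oil sands process water at 5 ppm were compared with hatchlings from the salt control of that water. The comparison rests on 6 of the 27 arrays of the series, chosen by their labels: replicates 4, 5 and 6 of the exposed group and replicates 7, 8 and 9 of the control. The series examined how the larval transcriptome of fathead minnow (Pimephales promelas) responded to rising doses of 3 sources of naphthenic acids, given from the embryo stage until hatch. The sources were process water, either fresh or aged, and naphthenic acids as a pure preparation. For each there were a salt control and a pair of doses, which makes 9 groups of 3 arrays. The exposed embryos received fresh oil sands water at 5 ppm, and the controls received what the labels call fresh oil sands salt. Both groups were sampled as newly hatched fish, their total RNA was extracted with Trizol, and each sample was labelled with Cy3 and hybridised to a one-colour Agilent array. The labels give neither what ppm of process water counts nor the make-up of the salt control. They also do not say whether replicates came from separate tanks, spawns or pools of larvae, so a p-value here reflects only how far these samples varied, and some of that variation may be technical.

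Naphthenic acids are carboxylic acids of crude oil and bitumen that dissolve in the water used to extract bitumen from oil sand. That water is also saline, and a salt control is meant to account for the salt. How closely the salt control here matches the salts of the process water is not given. The fathead minnow is a small freshwater fish that is widely used in toxicity tests, and embryos and larvae are among the life stages tested. An RNA sample of a hatchling mixes many tissues, so fewer cells of a type and less RNA per cell cannot be told apart in any value below.

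The probes were not named as genes. The array carried 15208 probes beside its 536 control spots, and their names in the files were contigs (11862 probes), sequence numbers (3309 probes) or other labels. None of these names as written (0 probe names and 0 contig names) matched the 64593 fathead minnow genes of the reference table used here. The sequence numbers were compared only as whole names with their prefix and were not looked up as sequence records. For those 3309 probes the comparison could therefore not have found a gene. The gene lists and the tissue markers drawn up for this tissue could thus not be applied, and the labelled life stage could not be checked against markers. Probes are described by identifier for the 2 largest rises and the 2 lowest-p probes on the lower side, and otherwise by the rank of their rise.

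Levels are log2 processed signals from which the 75th percentile of the array was subtracted, so a level of 0 equals that percentile. Testing was limited to the 12700 of the 15208 probes (83.5%) that cleared background on 3 or more of the 6 arrays. Of those tested, 11088 were well above background on all 6 arrays. The 75th percentile lay between 813 and 1315 intensity units on the 6 arrays, and the number of probes well above background was lowest on exposed replicate 5, with 11357, and highest on exposed replicate 6, with 13096. No probe spot was saturated. Levels of pairs of arrays correlated across probes with Pearson's r between 0.966 and 0.989. Control replicate 9 lay farthest from the exposed arrays, with a median absolute difference of 0.355 to 0.388 log2 units, against 0.233 to 0.284 for control replicates 7 and 8. In the whole series 5 arrays stood apart, with a raised signal of their dimmest probes (fresh 10 ppm replicate 1, aged salt replicates 7 and 9, aged 20 ppm replicates 4 and 6). None of them is among the 6 arrays, and they enter the comparison through the spread of each probe, which limma pooled over all 27 arrays.

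In hatchlings from fresh process water 16 of the 12700 tested probes were called as higher and 0 as lower (limma, Benjamini-Hochberg adjusted p below 0.05). Those are 0.126% of the tested probes for rises and 0% for falls. The 16 rises ran from 0.67 to 3.31 on the log2 scale with a median of 1.1, which corresponds to 1.59-fold to 9.89-fold with a median of 2.14-fold. At an unadjusted p below 0.05 limma gave 1166 probes, 588 higher and 578 lower in the exposed group. The median difference of all tested probes was −0.03. Adjusted p-values of the 16 ran from 0.00811 to 0.0482.

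The largest called rise was that of UF_Ppr_AF_111904. Its level was −0.33, 0.67 and 0.05 on exposed replicates 4, 5 and 6 and −3.29, −2.93 and −3.31 on control replicates 7, 8 and 9. Every exposed array lay above every control array, with a gap of 2.60 log2 units between the groups. The rise was 3.31 ± 0.46 (SE, n = 3 per group; limma adjusted p = 0.00811), or 9.89-fold, from −3.17 ± 0.21 to 0.13 ± 0.50 (mean ± SD, n = 3). The signal of the probe was near the middle of the brightness range, at the 52.4th percentile of the mean level of the 6 arrays, and it was well above background on all 6.

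The next largest rise, that of UF_Ppr_AF_113975, was measured on a brighter probe. Its level was 3.03, 3.30 and 2.99 on the exposed arrays and 1.76, 1.20 and 1.36 on the control arrays. The exposed replicates were closer to each other (SD 0.17, n = 3) than the controls were (SD 0.29, n = 3), and the groups were 1.23 apart at their nearest. The rise was 1.67 ± 0.29 (SE, n = 3 per group; limma adjusted p = 0.0298), or 3.17-fold, and the probe's mean level was at the 92.1st percentile.

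**Figure D1:**
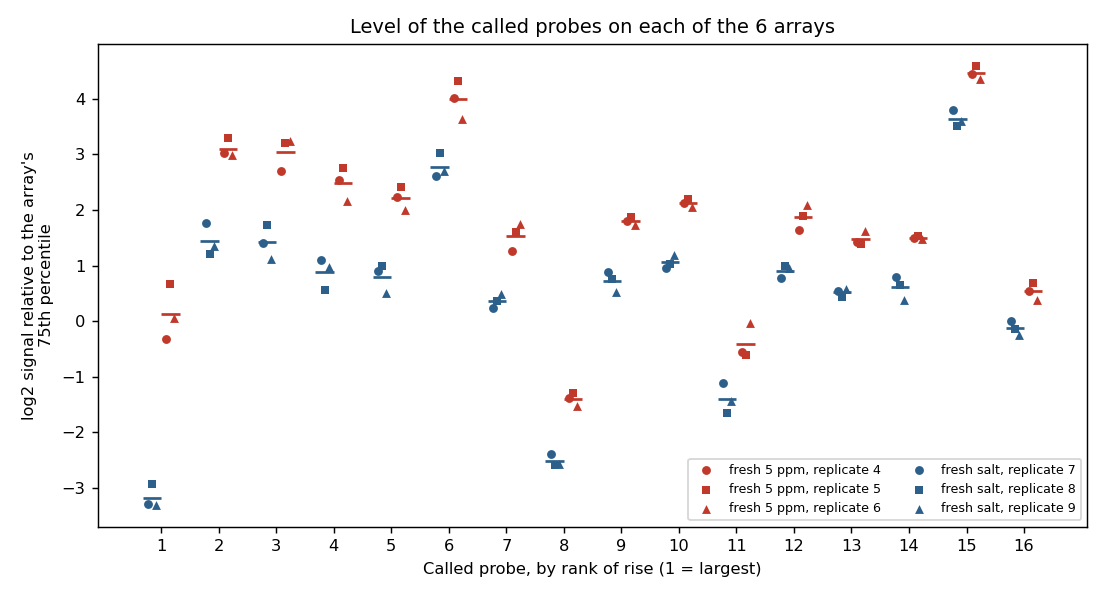
Level of each of the 16 called probes (log2 signal relative to the 75th percentile of the array, vertical axis) by rank of rise, with exposed arrays in red, control arrays in blue, one symbol per replicate and short lines for group means. All 3 exposed arrays lie above all 3 control arrays for each of the 16 probes, with gaps from 0.38 to 2.60.

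Ranks 3 and 4 rose by nearly as much as rank 2. The probe of rank 3 was at 2.70, 3.20 and 3.24 on the exposed arrays and at 1.41, 1.72 and 1.12 on the control arrays, a rise of 1.63 ± 0.29 (SE, n = 3 per group; limma adjusted p = 0.0308). The probe of rank 4 was at 2.54, 2.75 and 2.16 against 1.11, 0.55 and 0.97, a rise of 1.61 ± 0.25 (SE, n = 3 per group; limma adjusted p = 0.0167). In both probes the lowest exposed array stood about 1 log2 unit above the highest control array (0.98 and 1.05). The 4 largest rises were at least 3.04-fold, and the other 12 were between 1.59-fold and 2.67-fold.

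Ranks 5 to 10 rose by 1.42, 1.21, 1.17, 1.11, 1.08 and 1.07 on the log2 scale. The brightest of these 6 was rank 6, at 4.01, 4.33 and 3.64 on the exposed arrays and 2.61, 3.02 and 2.71 on the control arrays. Rank 8 was the dimmest of all 16 called probes, at −1.39, −1.30 and −1.53 against −2.39, −2.59 and −2.57. Its groups lay 0.86 apart, and the replicates within each had an SD of 0.12 and 0.11 (n = 3 each). The probe of rank 10 was about as even, with exposed levels of 2.12, 2.20 and 2.06 (SD 0.07, n = 3) and control levels of 0.96, 1.03 and 1.18 (SD 0.11, n = 3).

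Ranks 11 to 16 rose by less than 1 log2 unit, from 0.99 down to 0.67. Rank 14 had the closest exposed replicates of the 16, at 1.49, 1.54 and 1.47 (SD 0.03, n = 3), above control levels of 0.79, 0.65 and 0.39. Rank 15 was the brightest called probe, with 4.44, 4.59 and 4.36 on the exposed arrays and 3.80, 3.51 and 3.61 on the control arrays, a rise of 0.83 ± 0.15 (SE, n = 3 per group; limma adjusted p = 0.0308). Rank 16, the smallest called rise, went from 0.00, −0.14 and −0.24 on the control arrays to 0.55, 0.69 and 0.38 on the exposed ones. Its groups were 0.38 apart, and its SE of 0.13 was the smallest of the 16.

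The called rises were not the largest differences of the comparison as a group. A difference of at least 1 log2 unit was seen upward in 183 probes, of which 10 were called, and downward in 171, of which 0 were called by limma. At 2 units the numbers were 10 upward, with 1 called, and 12 downward, with 0 called, and at 3 units they were 2 and 0, with 1 rise called. The SE of the called rises had a median of 0.20, from 0.13 to 0.46, and that of all tested probes was 0.27. In all 16 the exposed arrays lay entirely above the control arrays. That was so for 1313 of 12662 probes (10.4%), and 1713 (13.5%) had every exposed array below every control array.

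Called rises came from the brighter part of the array, where brightness is the signal of a probe and does not rank transcripts by abundance. When the tested probes were divided by mean level into 5 classes of 2540, 12 of the 16 were in the brightest class, 1 in the next, 3 in the middle class and 0 in the 2 dimmest. Their mean levels lay between the 47.8th and the 97.5th percentile with a median at the 85.1st, and all 16 were well above background on all 6 arrays. The median SE of all probes was 0.69 in the dimmest class and 0.42, 0.25, 0.18 and 0.19 in the brighter ones. The median difference moved with brightness as well, from −0.19 in the dimmest class through −0.08, −0.03 and −0.01 to 0.08 in the brightest. Quantile normalization reduced this to a range from −0.05 to 0.01. In the quantile-normalized values all 16 probes were higher in the exposed group and 11 of them were called.

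**Figure D2:**
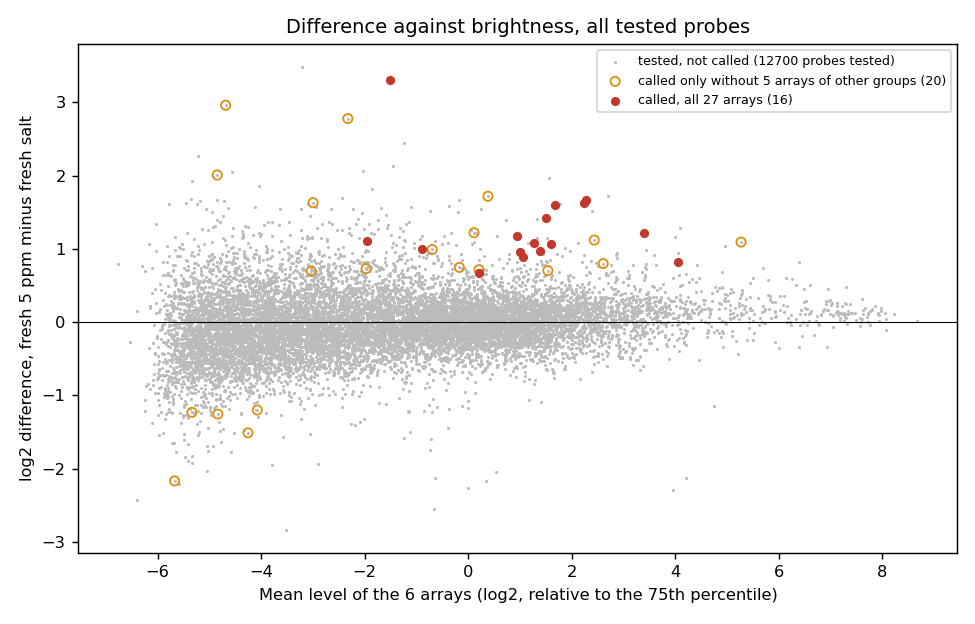
Log2 difference of fresh 5 ppm minus fresh salt (vertical axis) against the mean level of the 6 arrays (log2, relative to the 75th percentile) for the 12700 tested probes, with the 16 called probes in red and the 20 called only without the 5 arrays that stood apart as open circles. Called rises lie mostly to the right of a level of 0, and the 5 open circles below −1 lie at levels below −4.

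On the lower side no probe passed, and the 2 probes with the lowest p are given as values. UF_Ppr_AF_104571 was one of the brightest probes, at the 98.3rd percentile, with levels of 4.05, 4.31 and 4.14 on the exposed arrays and 5.06, 5.33 and 5.57 on the control arrays. The groups did not overlap and were 0.75 apart. The difference was −1.15 ± 0.23 (SE, n = 3 per group; limma adjusted p = 0.0585). UF_Ppr_AF_110290 was a dim probe at the 33.3rd percentile, with −3.81, −3.91 and −3.56 against −2.66, −3.01 and −2.38. Its groups were 0.55 apart, and the difference was −1.08 ± 0.23 (SE, n = 3 per group; limma adjusted p = 0.0915). Over 19 alternative fits the difference of UF_Ppr_AF_104571 ran from −1.28 to −0.89 and passed in 5, while that of UF_Ppr_AF_110290 ran from −1.24 to −0.50 and passed in 0 (lowest limma adjusted p = 0.0509).

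Probes measured in one group alone were few. Of the 12700 tested probes, 2 were well above background on every exposed array and on no control array, with signals at least 6.72-fold and at least 1.98-fold higher in the exposed group. Another 20 were well above background on every control array and on no exposed array, at least 1.25-fold to 2.24-fold higher in the control with a median bound of 1.53-fold. Both kinds were picked by the background flags of the arrays compared, so a bound above 1-fold follows largely from the choice. All of them lie in the dimmest of the 5 brightness classes, where the median difference of all probes was −0.19. Each bound sets the mean of the brighter group against the mean, over the arrays of the other group, of the probe's own signal or the dimmest signal still well above background on that array, whichever was higher. Over all 27 arrays none of them passed (lowest limma adjusted p = 0.288 for the exposed side and 0.330 for the control side), and 1 of either kind passed without the 5 arrays that stood apart.

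The groups were spread unevenly over the 4 slides. The exposed arrays lay on slides 3, 4 and 1, control replicates 7 and 9 on slide 2, and control replicate 8 on slide 3. Slide 3 thus held the one pair that can be compared within a slide, exposed replicate 4 and control replicate 8. In that pair all 16 called probes were higher in the exposed array, by 0.65 to 2.60 with a median of 1.02. Of all tested probes 54.1% were higher there (6859 of 12685), with a median of 0.04. The same 2 arrays are part of the comparison that chose the 16, and the groups did not overlap in any of the 16. The sign in this pair was thus fixed in advance, and the pair gives no separate evidence for these probes. With slide as a fixed block 24 probes rose and 0 fell, 15 of the 16 among them, and with slide as a random block 16 rose.

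The number of calls depended on which arrays gave the spread. Without the 5 arrays that stood apart, 31 probes rose and 5 fell, or 0.244% and 0.0394% of those tested, with all 16 rises among the 31. The median SE of all probes dropped from 0.27 to 0.22. The 15 additional rises were of 0.70 to 2.96 with a median of 1.09, and 13 of them were well above background on all 6 arrays. The probe with the rise of 2.96 was well above background on 3 exposed and 0 control arrays. The probe with the largest of the falls, −2.17, was so on 3 control and 0 exposed arrays. Each of these 2 passed the filter only through the group where it was higher. The 5 falls, of −2.17 to −1.20, were on dim probes between the 1.76th and the 22nd percentile of mean level, and 1 of the 5 was well above background on all 6 arrays. Over all 27 arrays these 20 probes had limma adjusted p-values between 0.0585 and 0.669. Fitting the 6 arrays alone gave 0 calls by limma (2086 at an unadjusted p below 0.05), although the median SE there was lower still at 0.19. That fit has 4 residual degrees of freedom in place of 18, and the 16 probes had adjusted p-values of 0.0863 to 0.218 in it. Fitting the 9 arrays of fresh process water and its control also gave 0 calls (1000 at an unadjusted p below 0.05).

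Most of the calls were lost whichever single array of the 6 was left out. Leaving out exposed replicate 5 or control replicate 9 left 0 calls by limma (893 and 509 probes at an unadjusted p below 0.05). Without exposed replicate 4 or control replicate 8, 1 call remained in each case, without exposed replicate 6 there were 2, and without control replicate 7 there were 5. Every one of these fits keeps all the other groups but compares 2 arrays with 3. Normexp background correction left 1 rise, and testing all 15208 probes with no filter left 10. With the mean of the 3 salt groups as control, which brings in 6 further control arrays, 132 probes rose and 23 fell, the 16 among the rises. In each of these fits all 16 probes remained higher in the exposed group. For single arrays left out this was fixed in advance, because the groups did not overlap in any of the 16. The fit with no filter leaves the differences themselves unchanged.

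**Figure D3:**
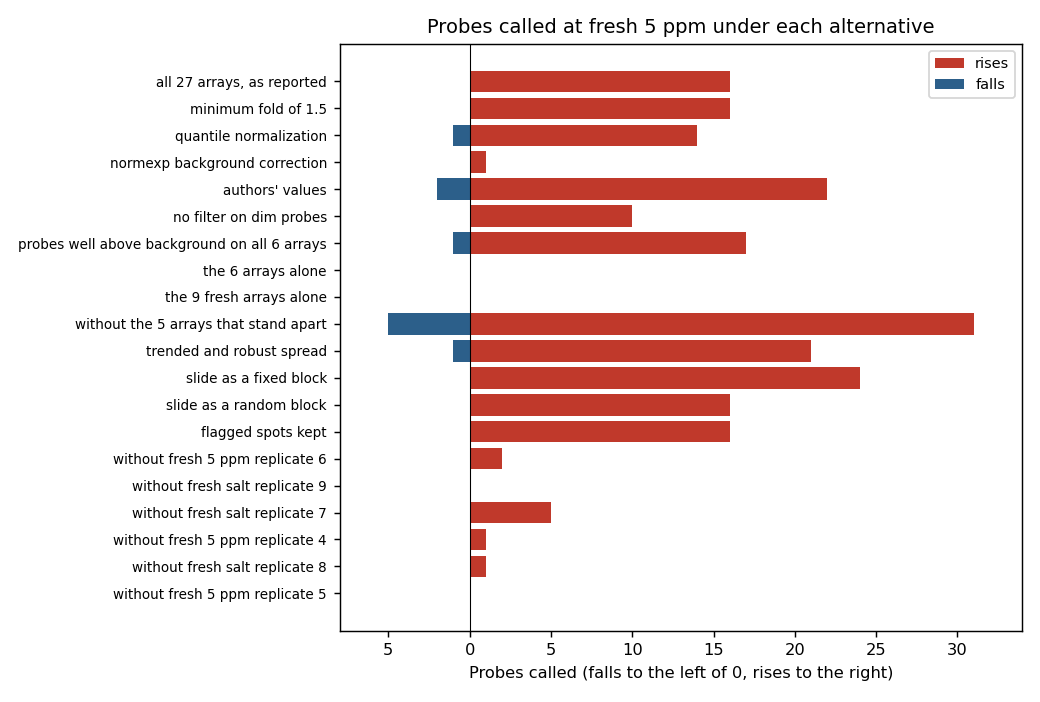
Number of probes called at fresh 5 ppm under each alternative, with rises to the right of 0 (red) and falls to the left (blue). Rises run from 0, in the 6 arrays alone, the 9 fresh arrays alone and without exposed replicate 5 or control replicate 9, to 31 without the 5 arrays that stood apart. The fit against the mean of the 3 salt groups, with 132 rises and 23 falls, is not drawn.

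The 16 probes were then followed through the exposures to aged process water and pure naphthenic acids, which have control arrays of their own. They share the spread of each probe and in part the layout over slides. The median difference of the 16 from the matching control was 1.11 at aged 10 ppm, 1.29 at aged 20 ppm, 1.11 at pure 1.25 ppm and 1.98 at pure 2.5 ppm, while the medians of all tested probes were −0.16, −0.06, −0.04 and −0.12. All 16 were higher than the control in each of the 4 exposures. Of all tested probes 39.5%, 44.2%, 44.4% and 37.1% were higher, in the same order. As rises, 10 of the 16 were called at aged 10 ppm (0.22% of all tested), 13 at aged 20 ppm (0.346%), 10 at pure 1.25 ppm (0.236%) and 15 at pure 2.5 ppm (1.76%). Without the 5 arrays that stood apart these counts were 1 at aged 10 ppm (0.063% of all tested), 2 at aged 20 ppm (0.0315%), 13 at pure 1.25 ppm (0.433%) and 16 at pure 2.5 ppm (2.67%). Far fewer rises of any probe were then called in the aged comparisons, 8 and 4 in place of 28 and 44, and the aged groups held 1 salt array and 1 array at 20 ppm. Fresh 5 ppm, aged 20 ppm and pure 2.5 ppm each lay on slides 3, 4 and 1. Salt replicates 7 and 8 of every source lay on slides 2 and 3. Whether slide has a part in the shared rises was not tested.

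Not every probe kept its place in that order. The probe of rank 4 rose by 1.61 at fresh 5 ppm and differed by 0.57 at aged 10 ppm, 0.92 at aged 20 ppm, 0.55 at pure 1.25 ppm and 0.94 at pure 2.5 ppm, none of which passed (limma adjusted p between 0.0571 and 0.763). It was the one called probe that did not pass at pure 2.5 ppm over all 27 arrays, and it passed there without the 5 arrays that stood apart. Its effect at fresh 5 ppm minus that at pure 2.5 ppm was 0.66 ± 0.36 (SE; limma adjusted p = 0.9999), which did not pass. The probe of rank 11 differed by 0.03 at aged 10 ppm and 0.42 at aged 20 ppm and rose by 1.05 at pure 1.25 ppm and 0.94 at pure 2.5 ppm, against 0.99 at fresh 5 ppm. Without the 5 arrays that stood apart its differences at aged 10 and 20 ppm were 0.19 and 0.81. The probe of rank 12 had 0.97 at fresh 5 ppm, 1.07 and 1.71 at aged 10 and 20 ppm and 1.29 and 2.56 at pure 1.25 and 2.5 ppm.

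**Figure D4:**
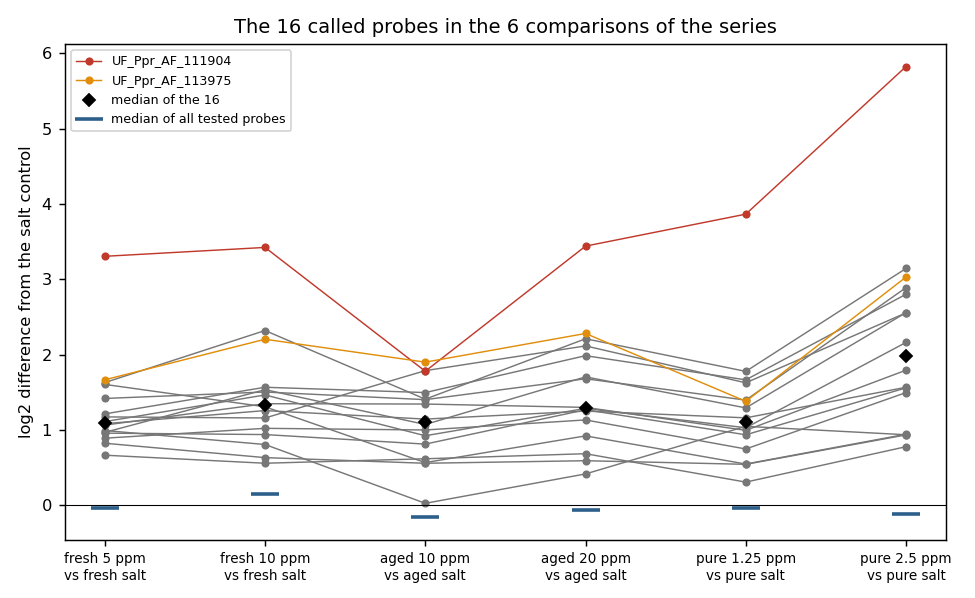
Log2 difference of the 16 called probes from the salt control in the 6 dose comparisons, with one line per probe, black diamonds for the median of the 16 and blue bars for the median of all tested probes. The probes were chosen at fresh 5 ppm, fresh 5 and 10 ppm share their control arrays, and the median of the 16 lies between 1.1 and 1.98 while that of all probes lies between −0.16 and 0.15.

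At fresh 10 ppm, which was set against the same 3 control arrays, UF_Ppr_AF_111904 had a mean level of 0.25 ± 0.71 (SD, n = 3) beside 0.13 at 5 ppm, and UF_Ppr_AF_113975 had 3.64 ± 0.10 (SD, n = 3) beside 3.11. Their differences from the control at 10 ppm were 3.42 and 2.20, and 3.76 and 2.23 without the 1 fresh 10 ppm array that stood apart. UF_Ppr_AF_104571 had 3.97 ± 0.21 (SD, n = 3) at 10 ppm beside 4.17 ± 0.13 at 5 ppm and 5.32 ± 0.25 in the control. UF_Ppr_AF_110290 had −3.71 ± 0.36 at 10 ppm beside −3.76 ± 0.18 at 5 ppm and −2.69 ± 0.32 in the control (SD, n = 3 each). For these lower probes the differences from the control at 10 ppm were −1.35 and −1.03, and −1.23 and −0.95 without the 1 fresh 10 ppm array that stood apart. All of these probes were chosen at 5 ppm against the same control arrays, so their values at 10 ppm are given as a description.

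Across the 9 groups UF_Ppr_AF_111904 was lowest in the 3 salt controls, at −3.51 ± 0.35 in pure salt, −3.17 ± 0.21 in fresh salt and −2.43 ± 0.68 in aged salt (mean ± SD, n = 3 each). It was next at aged 10 ppm, −0.65 ± 1.16, and then at fresh 5 ppm, fresh 10 ppm and pure 1.25 ppm, whose means of 0.13, 0.25 and 0.35 differed by less than their SDs of 0.41 to 0.71. The highest means were 1.01 ± 0.46 at aged 20 ppm and 2.31 ± 0.17 at pure 2.5 ppm. This order includes the arrays that stood apart. Of these, aged salt replicates 7 and 9 read −2.11 and −1.97 for UF_Ppr_AF_111904, against −3.21 on replicate 8. Without the arrays that stood apart, its difference from aged salt went from 1.78 to 2.56 at aged 10 ppm. At aged 20 ppm it went from 3.44 to 3.94. UF_Ppr_AF_113975 was also lowest in the salt controls, from 0.58 ± 0.28 in aged salt to 1.44 ± 0.29 in fresh salt. Its highest levels were at fresh 10 ppm, with 3.64 ± 0.10, and pure 2.5 ppm, with 4.03 ± 0.05. Fresh 5 ppm came next with 3.11 ± 0.17, and aged 20 ppm, at 2.86 ± 0.53, differed from it by less than the spread of its own arrays. Below pure 2.5 ppm the order of the exposure means was not that of UF_Ppr_AF_111904. Pure 1.25 ppm had the lowest of these means, at 2.38 ± 0.16. Aged 10 ppm, at 2.48 ± 0.65, differed from it by less than the spread of the aged arrays, so these 2 cannot be ordered. The differences of UF_Ppr_AF_113975 from aged salt were 1.90 and 2.28 at aged 10 and 20 ppm. Without the arrays that stood apart they were 1.65 and 1.62.

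Of the probes lower at fresh 5 ppm, UF_Ppr_AF_104571 differed by −0.43 and −0.32 at aged 10 and 20 ppm and by −0.62 and −0.40 at pure 1.25 and 2.5 ppm, none of which passed (limma adjusted p between 0.240 and 0.665). For UF_Ppr_AF_110290 those differences were −0.15, −0.28, −0.03 and −0.04, and none passed (limma adjusted p between 0.669 and 0.999). Its level in the aged salt control, −3.48 ± 0.34 (SD, n = 3), was lower than the −2.69 in fresh salt and −2.84 in pure salt. The effect at fresh 5 ppm minus that at pure 2.5 ppm was −0.75 ± 0.33 for UF_Ppr_AF_104571 (SE; limma adjusted p = 0.9999) and −1.03 ± 0.33 for UF_Ppr_AF_110290 (SE; limma adjusted p = 0.649), and neither passed.

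**Figure D5:**
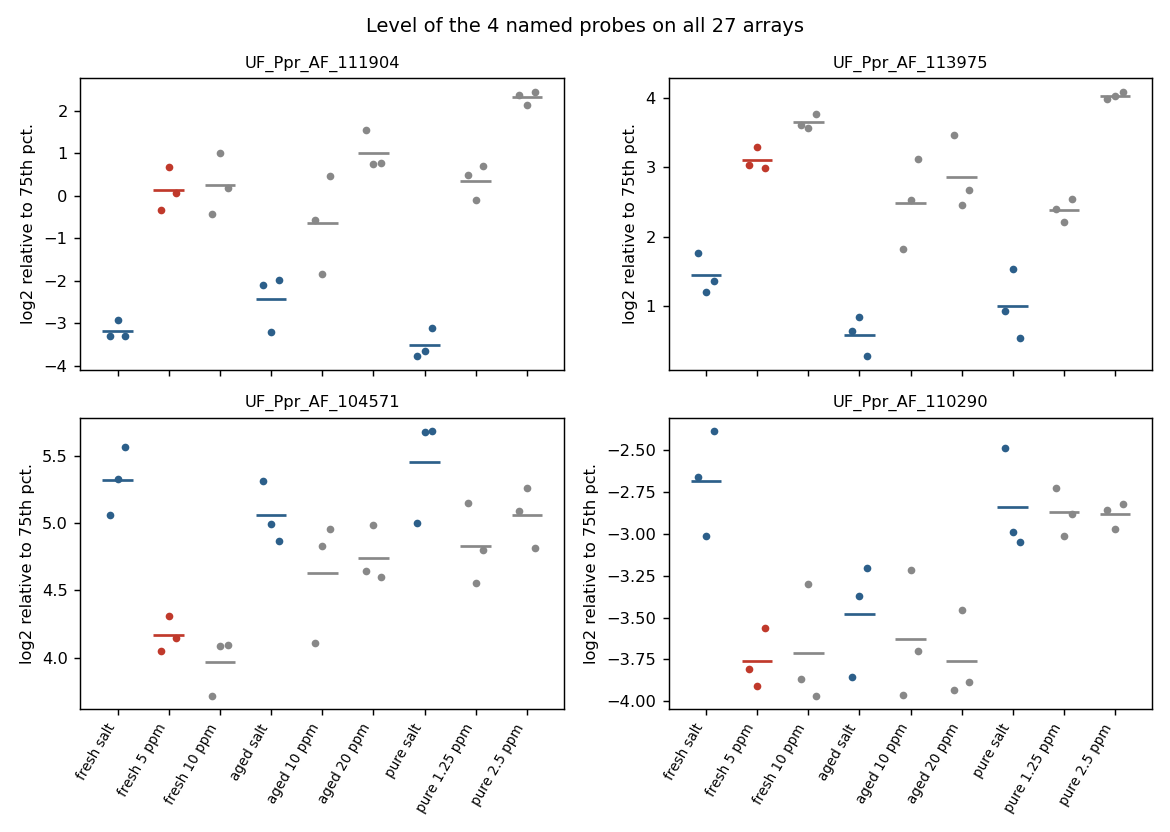
Levels of the 4 probes given by identifier on all 27 arrays by group (log2 signal relative to the 75th percentile), with the salt controls in blue, fresh 5 ppm in red, the other exposures in grey and short lines for group means. In the upper panels the salt controls are lowest, and in the lower left panel the fresh 5 and 10 ppm groups, at means of 4.17 and 3.97, are the lowest.

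The difference between the effect of fresh process water at 5 ppm and that of pure naphthenic acids at 2.5 ppm was tested directly, as the difference of the 2 contrasts. The doses, the substances and the control arrays all differ, so the test sets these 2 exposures side by side and not the sources at a matched dose. It called 5 probes (0.0394% of those tested), all with a smaller effect in fresh process water (limma, 559 at an unadjusted p below 0.05). One of the 5 was the probe of rank 12, which differed by −1.59 ± 0.26 (SE; limma adjusted p = 0.0376), with 0.97 at fresh 5 ppm and 2.56 at pure 2.5 ppm. Its mean levels were 1.88 and 0.91 in fresh 5 ppm and fresh salt and 3.36 and 0.80 in pure 2.5 ppm and pure salt. The other 4 did not pass at fresh 5 ppm, where they differed by −0.83, 0.19, −0.06 and −0.62, and they rose at pure 2.5 ppm by 2.53, 3.01, 1.93 and 1.25. In the same order their mean levels in fresh salt were 0.02, −2.57, −0.36 and −1.998, against −1.67, −3.96, −1.89 and −2.782 in pure salt. Their exposed means were −0.82, −2.38, −0.41 and −2.62 at fresh 5 ppm and 0.86, −0.95, 0.04 and −1.54 at pure 2.5 ppm. The lower pure salt level is thus a part of each of these 4 differences, and why the salt groups differed was not tested. Of the 16 probes called at fresh 5 ppm, 14 had a smaller difference there than at pure 2.5 ppm, against 41.1% of all tested probes, and the difference passed for 1. For UF_Ppr_AF_111904 it was −2.52 ± 0.66 (SE; limma adjusted p = 0.314) and for UF_Ppr_AF_113975 −1.36 ± 0.41 (SE; limma adjusted p = 0.588), neither of which passed. With single arrays of fresh 5 ppm or fresh salt left out, and every pure array kept, this test gave 0 to 3 calls. It gave 0 without exposed replicate 4 or 5 or control replicate 7 or 9 (388 to 704 at an unadjusted p below 0.05). It gave 2 without exposed replicate 6 and 3 without control replicate 8. With slide as a fixed block it gave 1 call, and with a replicate block 0 (542 at an unadjusted p below 0.05), and 5 of the 6 same-numbered pairs of fresh and pure arrays shared a slide.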

How the data were processed

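Total RNA of newly hatched fish was measured on 27 one-colour Agilent arrays. The scanner files the authors deposited hold a processed signal per spot, an intensity that, per the file headers, Agilent Feature Extraction 10.7.1.1 produced, with median and local background intensities and other columns of flags (0 or 1). Its 75th percentile differed between arrays, so no scaling between arrays had been applied. The value table of the series holds the authors' log2 values, which had a floor of 3.5 and medians of 7.36 to 7.43. These increased with the signal of the scanner files, without centring of probes. How they were normalized is not given in the sources used here.

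Control spots and spots flagged as not uniform were left out on all 27 arrays. On the 6 arrays there were 42 flagged spots, which removed a value from 38 tested probes and from 0 of the called ones. The largest number, 518, was on fresh 10 ppm replicate 1, an array that stood apart and enters the spread. After log2 transformation, each array's 75th percentile was subtracted. A model with 9 group means was fitted to the 27 arrays (limma 3.58.1, R 4.3.3), leaving 18 residual degrees of freedom, and the moderated statistic gave p-values that were adjusted across the 12700 tested probes (Benjamini-Hochberg). Calls are adjusted values below 0.05. The number of arrays, 3 per group, limits the precision. Probes printed by identifier were the 2 called ones with the largest rise and, as no fall was called, the 2 with the smallest p among those lower in the exposed group.

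The alternatives were quantile normalization, normexp (offset 50, on the median signal, since the files used here hold no mean signal), the authors' values, no filter or a filter on all 6 arrays, fewer arrays for the spread, a trended robust spread, slide as a block, the mean of the salt groups as control, a minimum fold of 1.5 and each of the 6 compared arrays left out. Fits that keep the spots flagged as not uniform, all variations of the fit without the 5 arrays that stood apart, and most alternatives for the difference from pure 2.5 ppm were added after seeing the data. Those 5 arrays had a Spearman correlation under 0.99 between scanner file and value table. The arrays, lists and tests were chosen with earlier results of these data known. The fitting procedure was tested on simulated data, in which noise was drawn independently for each array, with the same spread on every array and no slide or replicate effect. Such a test cannot show how far the calls here depend on single arrays. Replicate numbers of the exposed and control arrays (4 to 6 and 7 to 9) share none, so no replicate block was possible between them.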

Additional observations from a re-analysis of the deposited data

Results flagged for a closer look

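A direct test of the difference between 2 exposures, fresh process water at 5 ppm and pure naphthenic acids at 2.5 ppm, each against its own salt control, called 5 probes (limma adjusted p between 0.0252 and 0.0476). All 5 had a smaller effect in fresh process water, by −3.37 to −1.59 on the log2 scale. Over all alternatives run for this test the count ranged from 0 to 19, and with a replicate block it was 0 (limma, 542 at an unadjusted p below 0.05). Without the 5 arrays that stood apart, 3 of these 5 probes still passed. The pure salt mean was below the fresh salt mean in each of the 5, at −1.67 against 0.02 in the probe with the largest difference. In the probe with the smallest it was 0.80 against 0.91. Doses, substances and control arrays all differ between these comparisons, and their parts in the difference cannot be told apart.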

How the results depend on the processing

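All 16 called probes were higher in the exposed group in each alternative run. With single arrays left out this was fixed in advance, since the groups of these probes did not overlap. Changes of the filter or of the arrays that give the spread leave the differences unchanged, so the sign could not change there either. The calls at fresh 5 ppm numbered 1 with normexp, 10 with no filter, 0 in the 6 arrays or the 9 fresh arrays alone, 36 without the 5 arrays that stood apart and 155 with the mean of the 3 salt groups as control. Leaving out single arrays gave 0 to 5. Quantile normalization gave 14 rises and 1 fall, the authors' values 22 and 2, probes well above background on all 6 arrays 17 and 1, and a trended robust spread 21 and 1. Slide as a fixed block gave 24 rises, and slide as a random block, a minimum fold of 1.5 and keeping spots flagged as not uniform gave 16 each. Starting from the 36 calls, the mean of the salt groups gave 166, quantile normalization 51 (42 rises and 9 falls), slide as a fixed block 21, and leaving out single arrays 4 to 44: 4 without exposed replicate 5, 7 without control replicate 9, 14 without exposed replicate 4 or control replicate 8, 23 without exposed replicate 6 and 44 without control replicate 7. The 5 probes that differed from pure 2.5 ppm became 1 with quantile normalization, no filter, slide as a fixed block or the mean of the salt groups. That mean replaced fresh salt only, and pure 2.5 ppm was still set against pure salt. The 5 probes became 0 with normexp (204 at an unadjusted p below 0.05) and 19 with a trended robust spread. Without single arrays of fresh 5 ppm or fresh salt they became 0 to 3, and no pure array was left out. Normexp also moved the median of all probes in that test from 0.08 to −0.43. UF_Ppr_AF_111904 kept its call in 14 of 19 alternatives (differences of 1.90 to 3.54) and UF_Ppr_AF_113975 in 11 of 19 (1.55 to 2.10). Where counts changed, the cause was not tested.

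No paired analysis was possible between the exposed and control arrays because they share no replicate number. The test against pure 2.5 ppm could be fitted with a replicate block, which gave 0 calls by limma (542 at an unadjusted p below 0.05). In 4 of 6 same-numbered pairs of fresh and pure arrays the deviations from the group means correlated above 0.1 (0.06 to 0.43 over all 6 pairs). Of the 6, 5 correlated best with their own number, a hint of variation shared by number. The labels give no shared batch for a number, but 5 of the 6 pairs shared a slide, and there number and slide cannot be told apart. Treating the numbers as pairs was conditional on every pair exceeding 0.1, which was not met. The fit without the block is therefore the one reported. With 3 arrays per group, and an SE of dim probes that was several times that of bright ones, differences of dim probes were the least well measured.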

Other observations

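Some contigs are represented by more than one probe. Of the contigs with exactly 2 tested probes there were 192. In these pairs the log2 differences of fresh 5 ppm minus fresh salt lay a median of 0.47 apart, and 46.4% of the pairs had the same sign. Of all tested probes 46.5% were higher in the exposed group. Pairs of probes from different contigs were not examined, so neither value can be read as a trait of probes that share a contig. For 2 of the 16 called rises, a further probe was found whose contig name shares its first number but not the whole name. The partner of rank 15, which rose by 0.83, differed by 0.78 ± 0.19 (SE; limma adjusted p = 0.189). The partner of rank 8, which rose by 1.11, differed by −0.67 ± 0.22 (SE; limma adjusted p = 0.334), in the other direction. Neither partner passed. Which strand each of these probes reads was not tested.

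Among the 16 called rises 15 were named for contigs, against 81.2% of the tested probes. The replicates of the exposed group had a smaller SD than those of the control in 7381 of 12662 tested probes (58.3%) and in 7 of the 16 called ones.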
